A study of Mus musculus with 6 samples.

Results

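The clustered protocadherin genes were followed in the hippocampus of young and old mice. Their members were chosen by name, as every gene in the deposited table whose symbol begins with Pcdha, Pcdhb or Pcdhg, and 52 of the 13321 genes in the table met this rule, 10 in the Pcdha cluster, 21 in the Pcdhb cluster and 21 in the Pcdhg cluster. The GENCODE vM21 annotation lists 57 such genes, and Pcdha1, Pcdha4, Pcdha8, Pcdhb1 and Pcdhgb8 were not analysed here. Hippocampal mRNA had been sequenced from wild-type male mice of the inbred strain C57BL/6 that were 3 months old (3M; libraries J11, J13 and J15) or 22 months old (22M; libraries 72, 76 and 78). The labels do not say whether each library came from a separate mouse, so p-values cover only the spread from library to library, which may be technical. The values are FPKM, in which fragments are scaled to the length of a transcript and to all fragments mapped in a library, summed over the transcripts of a gene.

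Clustered protocadherins are cell-surface adhesion proteins with cadherin domains, and each neuron expresses its own small combination of them. Matching combinations on touching membranes bind each other, which lets the branches of 1 neuron recognise and avoid one another and shapes dendrites, axons and synapses. In the Pcdha and Pcdhg clusters each variable exon has its own promoter and is spliced to constant exons that encode a common intracellular end, whereas the Pcdhb genes each consist of a single exon. The C-type genes at the ends of the Pcdha and Pcdhg clusters (Pcdhac1, Pcdhac2, Pcdhgc3, Pcdhgc4 and Pcdhgc5) are less subject to this promoter choice than the alternate genes.

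The 3 clusters follow each other on the plus strand of chromosome 18 (GRCm38), the Pcdha transcripts from 36939224 to 37187657, the Pcdhb transcripts from 37294812 to 37524479 and the Pcdhg transcripts from 37661793 to 37841873. The 54 member transcripts in the table differ in how much of their length other members share. In the 10 Pcdha transcripts, 46.5% to 54.9% of the exonic bases lie in exons of other members. The Pcdhb transcripts share no exonic base, apart from 455 bases where Pcdhb21 and Pcdhb22 overlap. Most Pcdhg transcripts share about 2119 bases of constant exons, 44.8% of the length of Pcdhgb1 and of Pcdhga7, while the deposited transcript of Pcdhga1 is a single exon that shares none. Fragments from shared exons cannot be assigned to 1 member by position alone, so the split of FPKM within the Pcdha and Pcdhg clusters is uncertain, and Pcdhb genes are also similar in sequence to each other.

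Each transcript in the table averaged 0.5 FPKM or more in 1 age or in both. Pcdha3, Pcdha7, Pcdhac1 and Pcdhb21 reached that level in 22M alone and no member in 3M alone. The comparison of the ages was made on log2(FPKM + 0.5) for the 13041 genes whose mean over the 6 libraries reached 0.5 FPKM, which left 49 members and excluded Pcdha7, Pcdhac1 and Pcdhb21. A gene is called higher or lower when it passed the study's thresholds, meaning here a change beyond 1.5-fold in FPKM + 0.5 at an unadjusted P under 0.05. It is said to have risen or fallen only when its adjusted p was under 0.05. The added 0.5 makes the cut stricter for low genes. Pcdha3, Pcdhb13, Pcdhb15, Pcdhb11 and Pcdhgb6 had an unadjusted P under 0.05 in limma but were not called. Their ratios of mean FPKM were 1.98, 1.64, 1.63, 1.57 and 1.52.

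At these thresholds 9 of the 49 members were higher in 22M and 0 were lower, where 4.08% of all genes tested were higher and 4.22% lower. With median-of-ratios scaling of the libraries these shares were 4.90% and 3.32%, and 11 members were higher and 0 lower. Of the 9, 8 were Pcdhb genes (Pcdhb2, Pcdhb3, Pcdhb4, Pcdhb5, Pcdhb9, Pcdhb12, Pcdhb16 and Pcdhb19) and 1 was a Pcdhg gene (Pcdhga9). Pcdhb2 rose and no member fell, beside 0.92% of all genes that rose and 1.21% that fell. An unadjusted P under 0.05 in limma was reached by 15 members, 15 with a positive and 0 with a negative log2 fold change. In either direction this was 30.6% of the members, close to the 27.0% of all genes, and 10.6% of all genes passed with a positive value. In 21 of the 49 members each 22M library lay above each 3M library and in 0 below, beside 13.3% and 21.1% of all genes. The log2 fold change was above 0 in 45 of the 49 members and in 44.0% of all genes, and the median over members was 0.41, beside -0.05 over all genes.

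The Pcdhb genes, whose proteins take part in the recognition complexes through their extracellular domains, had 8 of 20 members tested higher (40.0%). Pcdhb2 measured 0.740, 0.509 and 0.848 FPKM in the young libraries J11, J13 and J15, against 2.25, 2.01 and 2.57 FPKM in 72, 76 and 78. The lowest old library was thus far above the highest young library, with means of 0.699 ± 0.173 FPKM in 3M and 2.28 ± 0.280 FPKM in 22M (SD, n = 3 each). The limma log2 fold change of Pcdhb2 was 1.22 with SE 0.181 (adjusted p = 0.0407), and leaving out J11, J13, 72, 76 or 78 moved the adjusted p over 0.05 while Pcdhb2 stayed higher at the study's thresholds.

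Its neighbours Pcdhb3, Pcdhb4 and Pcdhb5 were higher as well. Pcdhb3 measured 1.34, 1.57 and 1.20 FPKM in the 3M libraries and 2.67, 2.84 and 2.57 FPKM in the 22M libraries (limma log2 fold change 0.78 with SE 0.145 and adjusted p = 0.0513). Pcdhb4 was at a lower level, with 0.539, 0.451 and 0.522 FPKM against 1.04, 1.30 and 1.08 FPKM (limma log2 fold change 0.71 with SE 0.165 and adjusted p = 0.0660). In each of these 3 genes the ages did not overlap. Pcdhb5 measured 1.06, 0.990 and 0.934 FPKM in 3M and 2.07, 1.73 and 2.16 FPKM in 22M, a log2 change of 0.73 with SE 0.151 (limma, adjusted p = 0.0578).

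Pcdhb9, the most abundant Pcdhb gene, held 10.2% to 13.8% of the summed Pcdhb FPKM in every library. It measured 3.84, 3.21 and 3.36 FPKM in 3M and 5.97, 5.72 and 4.95 FPKM in 22M, without overlap. The log2 difference was 0.61 with SE 0.131 (limma, adjusted p = 0.0602). Pcdhb12 went from 2.14, 1.95 and 2.03 FPKM to 2.99, 3.64 and 3.66 FPKM (limma log2 fold change 0.63 with SE 0.137 and adjusted p = 0.0607). All 3 old libraries of Pcdhb12 exceeded the young ones, by a margin larger than the spread within either age. Pcdhb16 measured 0.885, 0.662 and 0.891 FPKM in 3M and 1.47, 1.55 and 1.52 FPKM in 22M (limma log2 fold change 0.62, adjusted p = 0.0754). Pcdhb19 measured 0.805, 0.623 and 0.928 FPKM in 3M and 1.27, 1.47 and 1.63 FPKM in 22M (limma log2 fold change 0.61, adjusted p = 0.0924). Neither of these genes overlapped between the ages, and in both J13 was the lowest young library. Without J13 the count of higher members was 5 (Pcdhb2, Pcdhb3, Pcdhb4, Pcdhb5 and Pcdhb12), and without J11 it was 15. Of all genes 3.45% were higher without J13 and 4.48% without J11.

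**Figure D1:**
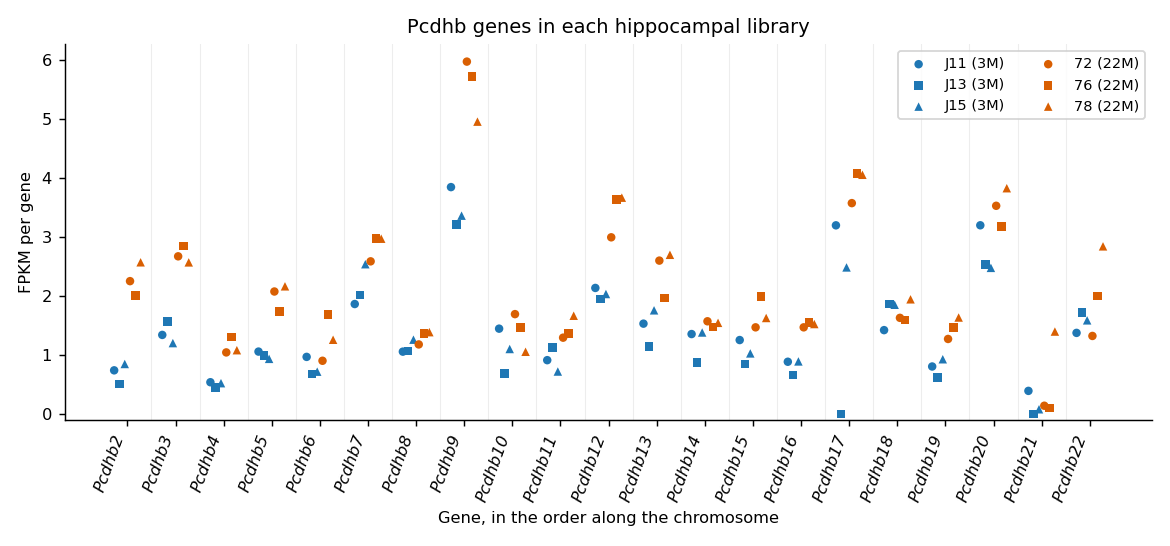
FPKM (y axis, linear) of the 21 Pcdhb genes in their order along the chromosome (x axis), with 1 point per library, 3M in blue and 22M in orange. In 14 of the 20 genes tested each orange point lies above each blue point, beside 13.3% of all genes. The gap relative to the level is wide in Pcdhb2, from 0.848 to 2.01 FPKM, while Pcdhb17 and Pcdhb21 are listed at 0 in J13.

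The other 12 Pcdhb genes tested were not past both thresholds. Their log2 fold changes ran from 0.01 in Pcdhb18 to 1.31 in Pcdhb17. Pcdhb18 measured 1.42, 1.86 and 1.85 FPKM in 3M and 1.63, 1.60 and 1.94 FPKM in 22M, so the ages overlapped. Pcdhb17 was listed at 0 in J13 and measured 3.20 and 2.48 FPKM in J11 and J15 and 3.57, 4.07 and 4.05 FPKM in 22M. The value of 1.31 with SE 0.720 (limma, adjusted p = 0.288) rests on J13, and without it the log2 fold change of Pcdhb17 was 0.40. Pcdhb20, among the most abundant members of its cluster, measured 3.20, 2.53 and 2.48 FPKM in 3M and 3.53, 3.17 and 3.82 FPKM in 22M, with overlap (limma log2 fold change 0.31, adjusted p = 0.227). Pcdhb21, which was not tested, was at or below 0.392 FPKM in 5 libraries and at 1.40 FPKM in 78.

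Over the cluster, the 20 log2 fold changes had a median of 0.54 and all 20 were above 0, but only 17 of 20 were so once length and GC content had been corrected for. The position in the cluster was looked at after the values had been seen. Pcdhb2 to Pcdhb5, the 4 members in the table nearest to the Pcdha cluster, had log2 fold changes of 0.71 to 1.22 (median 0.75), and the 16 tested from Pcdhb6 to Pcdhb22 had a median of 0.45. Across these 20 genes of the same libraries, the order on the chromosome and the log2 fold change had a Spearman rho of -0.38. After the correction for length and GC content the rho was -0.53. Both are given as a description and include Pcdhb17, whose value rests on J13.

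The Pcdha cluster had 0 of 8 tested members past the study's thresholds. In limma 2 of the 8, Pcdha3 and Pcdhac2, had an unadjusted P under 0.05, both with a positive value. Of all genes 10.6% did so with a positive value and 27.0% in either direction. In 3 of the 8, Pcdha3, Pcdha5 and Pcdhac2, each 22M library lay above each 3M library, beside 13.3% of all genes. Pcdhac2, a C-type gene that serotonergic axons of the mouse need for their even spacing, held 35.0% to 41.2% of the summed Pcdha FPKM. It measured 3.73, 3.57 and 3.92 FPKM in 3M and 4.59, 5.51 and 5.91 FPKM in 22M. The ages did not overlap, and the log2 fold change was 0.46 with SE 0.132 (limma, adjusted p = 0.0945). None of the serotonergic markers Tph2, Slc6a4 and Fev was among the genes in the table. Pcdhac1, the other C-type gene of the cluster, measured 0.296, 0.418 and 0.475 FPKM in 3M and 0.423, 0.581 and 0.753 FPKM in 22M, with overlap, and was too low to be tested.

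The alternate Pcdha genes were low, from 0.277 to 1.76 FPKM in single libraries. Pcdha3 measured 0.416, 0.385 and 0.328 FPKM in 3M and 0.605, 0.775 and 0.858 FPKM in 22M (limma log2 fold change 0.50 with SE 0.179 and adjusted p = 0.138). The ages of Pcdha3 were apart, but its place in the table came from its 22M level alone. With 0.1 added to the FPKM in place of 0.5, Pcdha3 was higher, as the only Pcdha member. Pcdha6 measured 1.05, 1.17 and 1.45 FPKM in 3M and 1.05, 1.70 and 1.72 FPKM in 22M. Pcdha11 measured 1.18, 1.14 and 0.751 FPKM in 3M and 1.09, 1.76 and 1.49 FPKM in 22M. Both overlapped between the ages, with log2 fold changes of 0.19 and 0.35. Pcdha12 had the smallest log2 fold change of the cluster, 0.06, with 0.697, 0.876 and 0.851 FPKM in 3M and 0.667, 0.699 and 1.32 FPKM in 22M. The 8 log2 fold changes had a median of 0.34 and were above 0, or in 6 of 8 with length and GC content corrected for. In 9 of the 10 members 78 was the highest of the old libraries, and in 8 of the 10 the library 72 was the lowest.

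The Pcdhg cluster was dominated by different genes in different libraries. In J11 the highest member was Pcdhga6 with 80.2 FPKM, in J13 it was Pcdhgb1 with 72.5 FPKM, and in J15 it was Pcdhgc5 with 78.7 FPKM. In the old libraries the highest were Pcdhgc3 with 56.5 FPKM in 72, Pcdhgc5 with 49.5 FPKM in 76, and Pcdhgb1 with 73.0 FPKM in 78. The 2 highest members together held 54.3% to 71.6% of the summed Pcdhg FPKM. Pcdhgc5 was the highest or second highest in all 6 libraries.

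Single members of this cluster therefore moved between libraries of the same age. Pcdhga6 measured 80.2 FPKM in J11 but 1.71 and 1.59 FPKM in J13 and J15 and 2.79, 3.24 and 3.91 FPKM in 22M. Pcdhgb1 measured 72.5 FPKM in J13 and 73.0 FPKM in 78 and lay between 1.68 and 3.18 FPKM in the other 4 libraries. Pcdhgb4 measured 1.36, 8.02 and 0.934 FPKM in 3M and 1.34, 34.4 and 7.86 FPKM in 22M. All 3 genes overlapped between the ages, and their log2 fold changes of -0.93 (SE 1.36), 0.41 (SE 1.73) and 1.52 (SE 1.14) came with standard errors of about their own size or larger. The highest value exceeded the lowest by more than 4-fold within 3M in 7 Pcdhg members and within 22M in 5. No Pcdha member and no Pcdhb member without a 0 did so in 3M, and in 22M the count was 0 for Pcdha and 1, Pcdhb21, for Pcdhb. Whether the shared constant exons had a part in this was not tested.

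Among the C-type Pcdhg genes, Pcdhgc5, whose protein binds a GABA-A receptor subunit in rat neurons, measured 40.6, 12.8 and 78.7 FPKM in 3M and 14.3, 49.5 and 16.2 FPKM in 22M. The ages overlapped (limma log2 fold change -0.60 with SE 0.727 and adjusted p = 0.627). Pcdhgc3 measured 4.96, 1.16 and 0.706 FPKM in 3M and 56.5, 0.998 and 0.692 FPKM in 22M, so its log2 fold change of 1.07 (SE 1.495) came from the library 72 and was -0.73 without it. Pcdhgc4, which mouse interneurons need for survival in development, was steadier, with 1.95, 1.38 and 1.10 FPKM in 3M and 2.48, 1.31 and 1.26 FPKM in 22M. Its ages overlapped (limma log2 fold change 0.12 with SE 0.271 and adjusted p = 0.803).

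Pcdhgc5 is the one member with several transcripts in the table. Its full-length transcript (4741 bases) ran from 7.54 to 72.7 FPKM over the libraries. A transcript of 593 bases measured 6.41, 5.11 and 4.42 FPKM in 3M and 2.95, 3.55 and 2.06 FPKM in 22M. The ages of the 593-base transcript did not overlap, unlike those of the gene sum. Its limma log2 fold change was -0.81 with SE 0.234 (unadjusted P = 0.0146, adjusted p = 0.185 over transcripts). Exons of other members hold 446 of its 593 bases (75.21%), the largest share of any member transcript, so its FPKM is uncertain. Genes of 102 to 1171 bases, the shortest tested, had a median log2 fold change of -0.34. The value of -0.81 was not corrected for length. The share of all transcripts that separate the ages in this way was not computed. The third, of 444 bases, overlapped, with 1.34, 0.181 and 1.57 FPKM in 3M and 1.14, 0.336 and 1.37 FPKM in 22M (log2 fold change -0.01, adjusted p = 0.997).

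**Figure D2:**
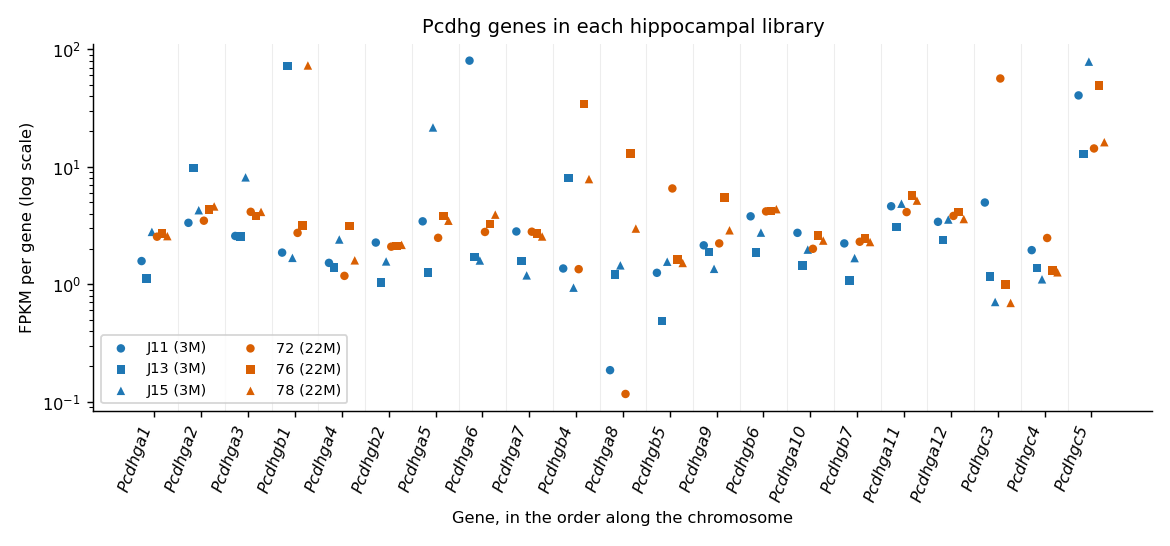
FPKM (y axis, log scale) of the 21 Pcdhg genes in their order along the chromosome (x axis), with 1 point per library, 3M in blue and 22M in orange. Single points far above the rest stand for Pcdhga6 in J11 (80.2 FPKM), Pcdhgb1 in J13 and 78 (72.5 and 73.0 FPKM) and Pcdhgc3 in 72 (56.5 FPKM), while Pcdhgc5 is high in every library.

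Past both thresholds was 1 of 21 Pcdhg members (4.8%), close to the 4.08% of all genes, and this was Pcdhga9. It measured 2.14, 1.88 and 1.35 FPKM in 3M and 2.23, 5.46 and 2.88 FPKM in 22M, so that the lowest old library was barely above the highest young one. The log2 fold change was 0.74 with SE 0.310 (limma, adjusted p = 0.184), and the call was kept in 6 of 16 processing alternatives. Pcdhgb6 measured 3.79, 1.86 and 2.75 FPKM in 3M and 4.17, 4.198 and 4.35 FPKM in 22M, without overlap (limma log2 fold change 0.57 with SE 0.223 and adjusted p = 0.165). Pcdhgb7 and Pcdhga12 were also above in each old library, with log2 fold changes of 0.44 and 0.28 (limma adjusted p = 0.253 and 0.328). Such a separation was seen in 4 of 21 Pcdhg members (19.0%), beside 13.3% of all genes. In limma 2 of 21 (9.5%), Pcdhga9 and Pcdhgb6, had an unadjusted P under 0.05 with a positive value, beside 10.6% of all genes. Pcdhga1, whose transcript shares no exon, measured 1.57, 1.12 and 2.79 FPKM in 3M and 2.54, 2.70 and 2.57 FPKM in 22M, with overlap (limma log2 fold change 0.48, adjusted p = 0.292). Over the 21 members 17 log2 fold changes were above 0 and 4 below, with a median of 0.35, and after the correction for length and GC content 14 were above 0.

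Sums over a cluster depend less on how fragments were split between its members. The summed Pcdhb FPKM were 31.3, 24.5 and 29.7 in 3M and 43.2, 45.5 and 48.4 in 22M, and the ratio of the means was 1.60. The summed Pcdha FPKM were 9.35, 10.2 and 9.52 in 3M and 11.1, 13.4 and 15.5 in 22M, a ratio of 1.37. Both sums were higher in each old library than in each young one. They include Pcdha3, Pcdha7, Pcdhac1 and Pcdhb21, which reached the table's level in 22M alone, and this favours 22M. With only members averaging 1 FPKM or more, which leaves these 4 out, the log2 ratios were 0.46 in Pcdha and 0.66 in Pcdhb. Over all members they were 0.46 and 0.68. The summed Pcdhg FPKM were 168.8, 129.8 and 145.8 in 3M and 124.2, 154.3 and 149.1 in 22M, a ratio of 0.96, and overlapped. The median over the 21 Pcdhg members, in contrast, was 2.58, 1.57 and 1.68 FPKM in 3M and 2.74, 3.24 and 2.98 FPKM in 22M. Outside the 2 highest members of each library, the remaining 19 summed to 44.4 to 48.0 FPKM in 3M and to 53.3 to 70.5 FPKM in 22M. The 2 members left out were picked by their values and differ between libraries. Unlike the sum, this remainder and the median depend on how fragments were split between members. The Pcdhb sum was 0.185 to 0.204 of the Pcdhg sum in 3M and 0.295 to 0.348 in 22M.

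**Figure D3:**
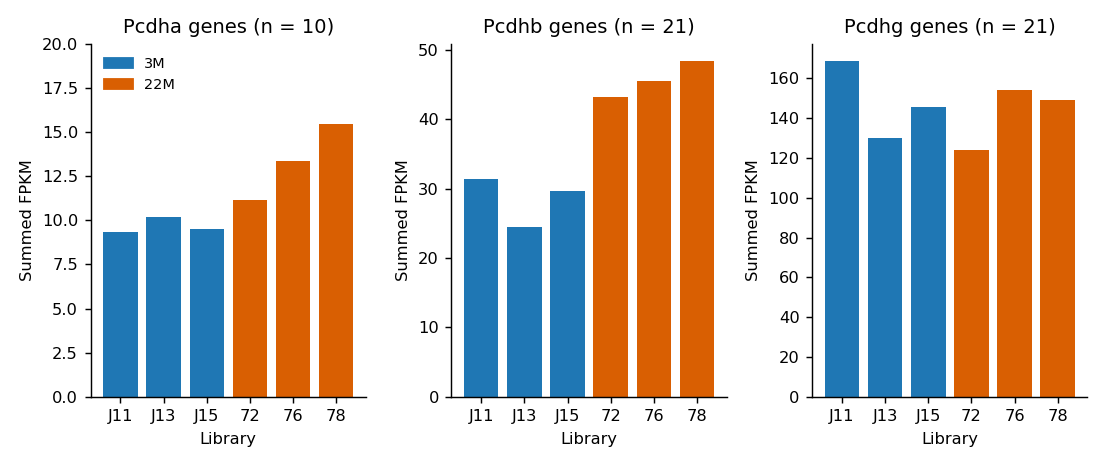
Summed FPKM (y axes, from 0) of the Pcdha, Pcdhb and Pcdhg genes in each library (x axes), 3M in blue and 22M in orange. The old libraries stand above the young in Pcdha (11.1 to 15.5 against 9.35 to 10.2) and in Pcdhb (43.2 to 48.4 against 24.5 to 31.3), and the bars overlap in Pcdhg.

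A pair of properties of the libraries moved with these differences. Across 13027 genes the log2 fold change followed transcript length (Spearman rho 0.516), from a median of -0.34 in the shortest 10% of genes to 0.31 in the longest 10%. Pcdhb transcripts had a median length of 3718 bases, Pcdha of 5334 and Pcdhg of 4720, against 2922 over all genes. After each library had been corrected for length and GC content the rho was 0.015, the medians were 0.37 in Pcdhb, 0.14 in Pcdha and 0.22 in Pcdhg, beside -0.06 over all genes, and 5 members were higher (Pcdhb2, Pcdhb3, Pcdhb4, Pcdhb5 and Pcdhb12) and 0 lower, beside 2.77% and 2.45% of all genes. The corrected value was above 0 in 37 of the 49 members and in 41.3% of all genes. The log2 fold change of Pcdhb2 was then 1.20, and no member kept an adjusted p under 0.05. The 383 other single-exon genes tested, a class to which the Pcdhb genes belong, had a median length of 1988 bases. Their median log2 fold change was -0.09, with 12 higher and 18 lower, beside 4.08% and 4.22% of all genes. After the same correction their median was -0.01, with 23 higher and 14 lower, beside 2.77% and 2.45% of all genes.

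**Figure D4:**
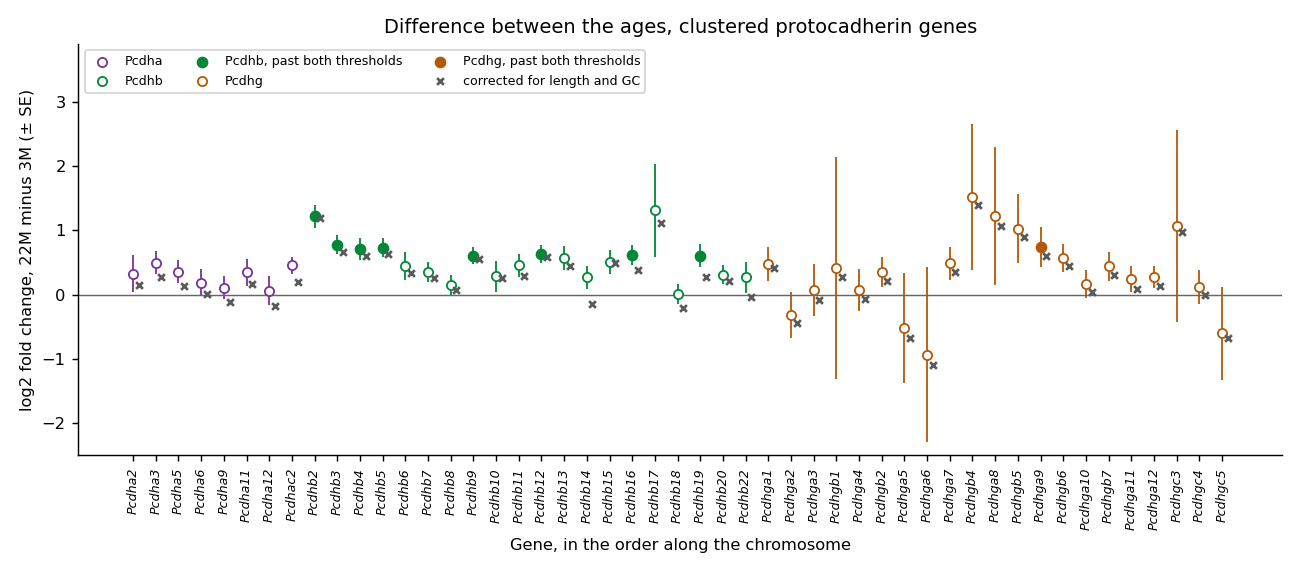
log2 fold change of 22M over 3M with its standard error (y axis) for the 49 members tested, in their order along the chromosome (x axis), filled where both thresholds were passed, with crosses for values corrected for length and GC content. The filled points are 8 Pcdhb genes and Pcdhga9, and the error bars are long in Pcdhg members such as Pcdhgb1 (SE 1.73) and short in Pcdhb members such as Pcdhb9 (SE 0.131).

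The other property was the mix of cells and tissue. Of 5 oligodendrocyte markers, 5 were lower and 3 fell (Mog, Mag and Cnp), beside 4.22% and 1.21% of all genes. The summed FPKM of these 5 markers were 603 to 676 in 3M and 339 to 475 in 22M. Of 8 markers of thalamus and habenula, 4 were lower and 3 fell (Prkcd, Ramp3 and Shox2), with sums of 73.4 to 128.5 FPKM in 3M, the highest in J13, and 45.1 to 58.1 in 22M. The 6 neuronal markers had a median log2 fold change of -0.02, and Map2 rose (limma log2 fold change 0.70, adjusted p = 0.0479). Their sums overlapped between the ages. The 8 markers of hippocampal excitatory neurons had a median of 0.11 with 1 higher (Prox1), and the 6 of GABAergic interneurons a median of 0.15 with 0 called. The 6 astrocyte markers had a median of 0.21 with 4 above 0, 0 higher and 1 lower (Aldh1l1), and their sums were 420.0 to 463 FPKM in 3M and 519 to 625 FPKM in 22M. Of the markers of oligodendrocyte precursors, microglia and endothelial or mural cells 0 passed the study's thresholds. After the correction for length and GC content 3 oligodendrocyte markers were lower and 1 fell, 5 markers of thalamus and habenula were lower and 1 fell, 0 neuronal markers rose, and the astrocyte median was -0.04 with 1 higher and 1 lower. Of the GABAergic interneuron markers 1 was then higher (Sst, corrected log2 fold change 0.63). Of the hippocampal excitatory neuron markers 0 were, with Prox1 at 0.33. Choroid plexus markers summed to 1612 to 2468 FPKM in 3M and 132 to 2787 FPKM in 22M, lowest in 78. The part of the cell mix in the protocadherin values was not tested, and in bulk tissue fewer cells of a type and less RNA per cell cannot be told apart.

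The non-clustered protocadherins, relatives encoded by separate genes across the genome, had 1 of 10 tested members higher and 1 lower. Of all genes 4.08% were higher and 4.22% lower. Pcdh20 measured 12.9, 20.9 and 24.9 FPKM in 3M and 25.8, 30.8 and 30.9 FPKM in 22M (limma log2 fold change 0.61, adjusted p = 0.156). Pcdh9 measured 8.39, 11.6 and 9.58 FPKM in 3M and 5.12, 6.35 and 5.50 FPKM in 22M (limma log2 fold change -0.74, adjusted p = 0.0558). The ages were apart in both genes, in opposite directions. The median over the 10 was 0.26, and 0.00 after the correction for length and GC content.

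Of 18 tested genes that act on promoter choice in the clusters, 2 were higher and 0 lower, beside 4.08% and 4.22% of all genes. Ctcf, whose protein binds the promoters and enhancers of the clusters and loops them together, measured 16.2, 13.8 and 16.5 FPKM in 3M and 15.8, 14.4 and 17.9 FPKM in 22M, with overlap (limma log2 fold change 0.05, adjusted p = 0.825). Pds5a, a cohesin regulator, measured 3.74, 2.65 and 3.81 FPKM in 3M and 5.36, 5.94 and 7.44 FPKM in 22M (limma log2 fold change 0.79, adjusted p = 0.0645). Its relative Pds5b measured 12.5, 9.38 and 13.4 FPKM in 3M and 14.99, 17.4 and 21.8 FPKM in 22M (limma log2 fold change 0.60, adjusted p = 0.106). Both were higher in each old library, a separation seen in 11 of the 18 genes, beside 13.3% of all genes. The log2 fold change was above 0 in all 18, beside 44.0% of all genes. After the correction for length and GC content it was above 0 in 11 of them, beside 41.3% of all genes. The median over the 18 genes was 0.28, and 0.05 after the correction for length and GC content.

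Of 27 genes for partners, effectors and processing enzymes of the proteins, 2 were higher and 2 lower, beside 4.08% and 4.22% of all genes. Their median log2 fold change was 0.02. Abi2, a subunit of the WAVE complex that drives actin branching, measured 18.4, 17.3 and 16.2 FPKM in 3M and 22.8, 40.2 and 44.0 FPKM in 22M (limma log2 fold change 0.97, adjusted p = 0.0726). Prkcb, a protein kinase C, measured 44.6, 36.9 and 38.2 FPKM in 3M and 88.8, 52.7 and 66.5 FPKM in 22M (limma log2 fold change 0.76, adjusted p = 0.0735). The lower genes were Rac1, a small GTPase upstream of WAVE (limma log2 fold change -1.39, adjusted p = 0.151), and Psenen, a subunit of the gamma-secretase that cleaves protocadherins (limma log2 fold change -0.95, adjusted p = 0.0529). Rac1 overlapped between the ages, since 78 measured 94.4 FPKM, while the other 3 genes did not.

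**Figure D5:**
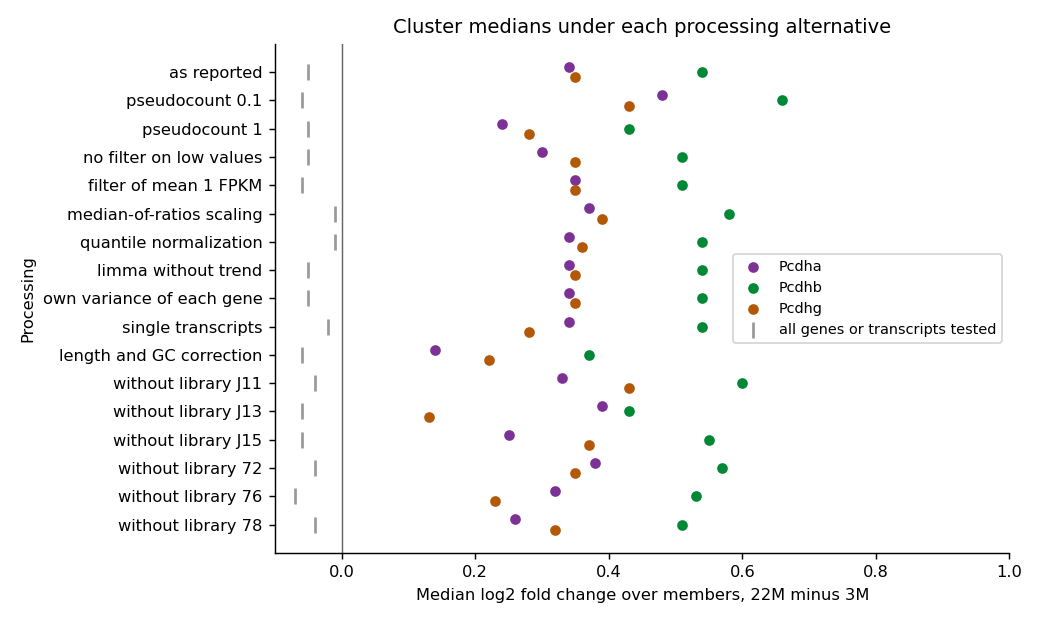
Median log2 fold change of 22M over 3M (x axis) of the Pcdha, Pcdhb and Pcdhg members tested under each processing alternative (y axis), with the median of all genes or transcripts tested as grey ticks. The cluster medians lie above 0 in each row, with Pcdhb from 0.37 to 0.66, Pcdha from 0.14 to 0.48 and Pcdhg from 0.13 to 0.43.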

How the data were processed

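Hippocampal mRNA from 3 libraries at 3M and 3 at 22M was compared. Per the labels, RNA was selected with oligo beads and made into stranded libraries. The authors deposited FPKM per protein-coding transcript, and the submitters' processing notes name HISAT2 and the build GRCm38 (mm10), whereas the quantifier, its handling of shared exons and the annotation were not given in the sources used here. FPKM hold no counts, so the depth per library is unknown and precision comes from the spread between libraries. The FPKM of all transcripts summed to between 318024 and 358073 per library.

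The deposited FPKM of 25409 transcripts were summed per gene symbol. Where a gene's mean reached 0.5 FPKM it entered limma 3.58.1 (R 4.3.3) on log2(FPKM + 0.5), with a variance trend, two-sided, with Benjamini-Hochberg adjustment over all 13041 genes. Fold changes on this scale understate those of low genes. The test was checked on simulated data. With 3 libraries against 3, an exact permutation test of a single gene cannot go below p = 0.1. Exon overlap, lengths and GC content came from GENCODE vM21 on GRCm38, where 99.7% of the transcripts were found.

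The members and the gene lists were chosen with earlier results of these data known, and 2 list genes are not reported here. Genes named were those past either threshold, the C-type genes, the 3 highest and the lowest tested member of each cluster, the largest and smallest log2 fold change of each cluster and up to 4 genes of each other list by P. Any other gene was picked with its values in view. Alternatives comprised different pseudocounts, filters, scalings and variance models, single transcripts, a correction of each library for length and GC content (splines, 4 degrees of freedom each) and leaving out each library. No sequences are printed.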

Additional observations from a re-analysis of the deposited data

How the results depend on the processing

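No paired analysis was possible because the age groups share no replicate numbers. The count of 9 higher members became 14 with a pseudocount of 0.1, 2 with a pseudocount of 1 and 5 with the correction for length and GC content, and ran from 5 (without J13) to 15 (without J11) when 1 library was left out. In these alternatives, in the same order, 4.58%, 3.34%, 2.77%, 3.45% and 4.48% of all genes were higher. Pcdhb2 and Pcdhb3 were higher in each of the 16 alternatives, Pcdhb5 in 15, Pcdhb4 and Pcdhb12 in 14 and Pcdhga9 in 6. The count of members that rose was 2 with median-of-ratios scaling and with quantile normalization, 0 with each gene's own variance, with single transcripts and with the correction for length and GC content, and 0 to 1 when 1 library was left out. Over all genes 212 rose with either scaling, 0 with each gene's own variance and 24 with the correction. With single transcripts 29 transcripts rose, and 0 to 181 genes did when 1 library was left out. The count of lower members was 1 with single transcripts, through the Pcdhgc5 transcript of 593 bases, while that of 444 bases had a log2 fold change of -0.01. Of all transcripts tested 4.54% were lower. The Pcdhb median moved from 0.54 to 0.37 with the correction for length and GC content. With that correction Pcdha12 (-0.17), Pcdhb18 (-0.21) and Pcdhgc4 (-0.01) changed sign. Leaving out 1 library changed the sign of some values, which ran from -0.14 to 0.18 in Pcdha12, from -0.09 to 0.06 in Pcdhb18, from -0.12 to 0.29 in Pcdhgc4, from -1.06 to 2.08 in Pcdhgb1, from -1.82 to 0.82 in Pcdhga6 and from -0.73 to 2.06 in Pcdhgc3. The log2 ratio of the Pcdhg sums, -0.06, ran from -0.14 to 0.05. The causes were not tested. Unknown depth leaves the counting error of members below 1 FPKM unmeasured.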

Other observations

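The genes around the clusters were also read. Of 33 tested genes within 1 Mb of the clusters, 0 passed the study's thresholds in either direction, beside 4.08% of all genes higher and 4.22% lower. In limma 10 had an unadjusted P under 0.05, beside 27.0% of all genes. Hars, a histidyl-tRNA synthetase gene on the Pcdha side, fell (limma log2 fold change -0.49, adjusted p = 0.0479), as did 1.21% of all genes. The median log2 fold change of the 33 genes was -0.17, and -0.13 after the correction for length and GC content, when 0 fell. Taf7, a gene for a subunit of the TFIID transcription factor that lies between the clusters, had a log2 fold change of -0.19 (adjusted p = 0.476), and Diaph1, a formin gene next to the Pcdhg cluster, had 0.22 (adjusted p = 0.224).

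J13 stood low in many Pcdhb and Pcdhg genes, though no share over all genes was computed for the counts that follow. J13 also had the most transcripts listed at 0, with 1478 against 996 to 1288 in the other libraries. It was the lowest young library in 13 of 21 Pcdhb genes and in 12 of 21 Pcdhg genes, but in 1 of 10 Pcdha genes. Dnmt3a, a DNA methyltransferase gene, measured 1.08 FPKM in J13 and 5.09 to 6.67 FPKM in the other 5 libraries. Tet2, whose protein oxidises methylated cytosine, measured 0.461 FPKM in J13 and 1.92 to 3.11 FPKM in the others. Dnmt3a and Tet2 were picked with their values in view, and some other genes were highest in J13. Gad1 measured 110 FPKM in J13 and 15.8 to 101 FPKM in the others, and Pvalb 122 against 47.9 to 64.6 FPKM. The cause was not tested.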
